A study of Homo sapiens with 6 samples.

Results

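SHANK1, HGSNAT, TMEM205, NSUN4 and SNX5 are 5 of the 63563 genes measured in RKO cells with and without added connexin 43. They were picked from earlier results of the same comparison because single isoforms of them stood at different levels in the 2 groups. The tables hold 71 isoform entries for them, of 251748 in all: 9 of SHANK1, 13 of HGSNAT, 17 of TMEM205, 12 of NSUN4 and 20 of SNX5. Of the 71, 66 are transcripts and 5 are entries under the gene's own ID, which run over the full locus, introns included. Because the choice used these values, the differences in the 5 genes are descriptions without a test of their own.

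RKO is an established human colorectal cancer cell line. The OVER43 group (3 libraries, genotype given as Cx43 overexpression) was stably transfected with pcDNA3.1, a plasmid for expression in mammalian cells, carrying the cDNA of Cx43, the gap junction protein encoded by GJA1. The EV group (3 libraries, genotype given as WT) carried the empty vector, so both groups went through stable selection, and nothing in the labels says whether a group is 1 clone or several. Poly(A) RNA was measured, and no label ties the 3 libraries in either group to separate cultures, which means that their spread may be technical.

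A gene can give several transcripts through different start sites, splicing and ends, and these can differ in the protein they encode or encode none. A retained-intron transcript keeps an intron and usually stays without a full reading frame. A transcript annotated to nonsense-mediated decay has a stop codon placed so that the decay machinery, built around UPF and SMG proteins, can degrade it. A shift in isoform use can therefore change what a gene makes while its total hardly moves, and the isoform values of a short-read library are estimates, since most reads fit several transcripts of the gene.

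The members have unrelated roles. SHANK1 is a scaffold of the postsynaptic density, where it links glutamate receptor complexes to the actin cytoskeleton through ankyrin, SH3, PDZ and SAM domains. HGSNAT is a lysosomal membrane enzyme that acetylates the terminal glucosamine of heparan sulfate, and its loss causes a form of Sanfilippo syndrome. TMEM205 is a membrane protein that has been linked to cisplatin resistance. NSUN4 is a mitochondrial RNA methyltransferase that acts on the small ribosomal RNA and works with MTERF4 in building the mitochondrial ribosome, and SNX5 is a sorting nexin with a membrane-bending BAR domain that returns cargo from endosomes to the Golgi.

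Values are FPKM, fragments per kilobase and per M (1e6) mapped fragments, and the share of an isoform is its percentage of the summed FPKM of all entries of the gene in that library. A share compares isoforms within a gene per unit of length. Libraries are named by group and by the column number of the deposited tables, 0 to 2. Low FPKM values step by the value of 1 fragment, from which depths of 48.8, 47.4 and 46.2 M fragments were obtained for OVER43 and 51.5, 42 and 46.4 M for EV. GJA1 stood at 24.7 ± 1.44 FPKM in OVER43, against 0.348 ± 0.0469 FPKM in EV (SD, n = 3 each). Of 10 colon epithelium markers, 4 reached 1 FPKM in at least 3 libraries (EPCAM, KRT8, KRT18 and CDX2), KRT20 and CEACAM5 were listed at 0 in all 6, and the markers summed to 198.9 to 203.9 FPKM in OVER43, against 156.4 to 163.6 FPKM in EV. The sum hides opposite differences, with KRT18 at 148.4 ± 0.989 FPKM in OVER43, against 79.4 ± 3.68 FPKM in EV, and KRT8 at 24.6 ± 1.63 FPKM in OVER43, against 58.7 ± 1.92 FPKM in EV. None of 8 fibroblast, 5 leukocyte and 4 endothelial markers reached that level. Of 7 neuronal markers, DLG4 reached it in both groups and SYN1 in EV alone (0.0597 ± 0.0107 FPKM in OVER43, against 1.16 ± 0.142 FPKM in EV), and the list, nearly all DLG4, summed to 18.04 to 18.5 FPKM in OVER43, against 20.0 to 20.9 FPKM in EV. In RNA from a whole culture, fewer cells of a type and less RNA per cell cannot be told apart. EV library 2 stood slightly apart from the other EV libraries, with correlations of log2 values across genes of 0.988 and 0.989, where the other pairs within a group reached 0.991 to 0.992. Without it, the largest share differences of the members lay at -21.2 points for SHANK1, -49.98 for HGSNAT, 5.31 for TMEM205, 19.5 for NSUN4 and 5.40 for SNX5, each larger in size than with it.

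How far the word switching applies differed between the 5 genes. The largest difference of a single entry's share was in HGSNAT-201, by -47.4 percentage points (OVER43 minus EV), and HGSNAT was the 1 member whose leading entry differed between groups. SHANK1-207 followed at -20.4 and NSUN4-206 at 17.96 points, with the leading entry the same in both groups. The largest differences in SNX5 (5.00 points, SNX5-201) and TMEM205 (4.03 points, TMEM205-216) lay at about the median of all genes. Over 10677 genes with at least 2 entries above 0 and a sum of at least 1 FPKM in every library, the median largest difference was 5.09 points, the upper quartile 8.75 and the 95th percentile 17.7. By this measure 0.103% of the genes had a difference at least as large as HGSNAT, 2.98% as large as SHANK1, 4.73% as large as NSUN4, 50.7% as large as SNX5 and 59.8% as large as TMEM205. In 111 of these genes (1.04%) the leading entry differed and the shares of both leading entries did not overlap between groups. In SNX5 and TMEM205 the entries with the largest fold differences were minor ones.

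**Figure D1:**
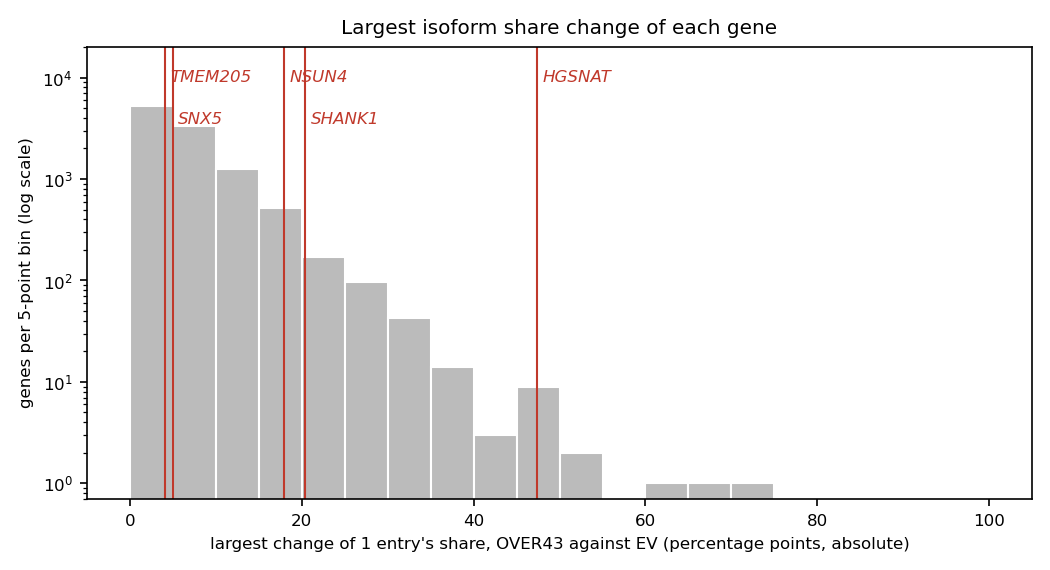
Histogram of the largest absolute change of any entry's share, OVER43 against EV, over 10677 genes (percentage points on the x axis, genes per bin on a log y axis), with the 5 members as red lines. HGSNAT lies far out at 47.4 points, SHANK1 and NSUN4 at 20.4 and 17.96, and SNX5 and TMEM205 inside the fullest bins at 5.00 and 4.03.

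Of the 71 entries, 7 were at 0 in all libraries (4 of TMEM205, 2 of NSUN4 and 1 of HGSNAT). The shares of 25 of the other 64 did not overlap between groups, against a background of 14.3% of all 91550 entries above 0. Of the 28 entries with a mean share of at least 5% in a group, 15 did not overlap, against a background of 17.3%. These counts describe entries of genes picked for such differences, so they carry no weight of their own. Among 42 entries that passed the filter of 1 FPKM in at least 3 libraries, 13 were called by limma on log2(FPKM + 1) with Benjamini-Hochberg adjustment at 0.05, against 14.6% of 31220 entries in the series. In OVER43, 6 of the 13 were higher, against 9.77% of the series, and 7 were lower, against 4.82%. In the series, entries called higher and lower numbered 3049 and 1504, but 1628 and 1965 under quantile scaling and 1538 and 2374 with equal FPKM sums. The rule used this contrast, so nothing is read from these counts. Where shares were tested with limma over 34960 entries, none of the 28 member entries and 0% of all entries were called after adjustment. At an unadjusted p under 0.05, 11 of the 28 and 9.34% of all entries passed. On log2 ratios in place of shares, limma called 25 entries of the series, among them SHANK1-203 and NSUN4-209. The choice of members used this contrast, so nothing is read from the member results of the share fits either. In the authors' deposited table, of the 71 entries, 59 were tested and 1, the whole-gene entry of SHANK1, had a q under 0.05. Over the whole series, 67379 entries were tested there and 2805 had a q under 0.05.

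**Figure D2:**
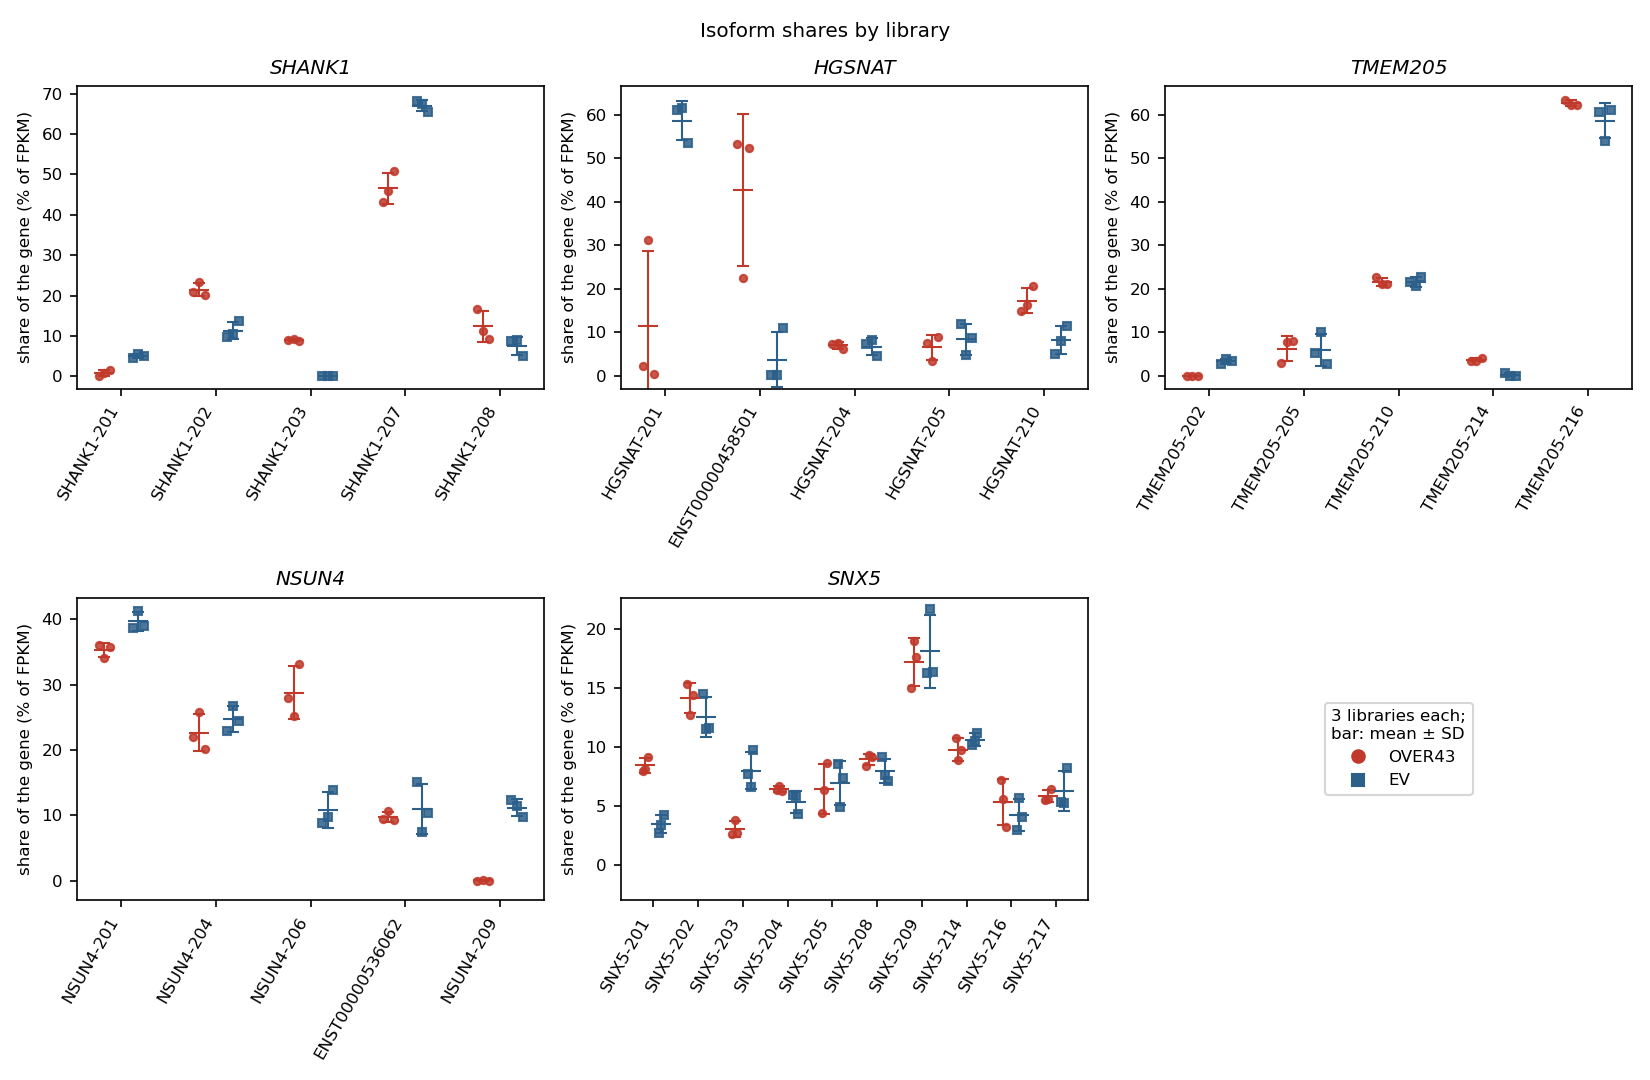
Share of each gene's FPKM (%, y axis) held by single entries in the 3 OVER43 libraries (red circles) and 3 EV libraries (blue squares), with the mean ± SD. Entries with a mean share of at least 5% in a group are shown, plus SHANK1-201, TMEM205-202 and TMEM205-214. SHANK1-207 and HGSNAT-201 sit lower in OVER43, NSUN4-206 sits higher, and most SNX5 entries overlap.

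SHANK1 (ENSG00000161681, chromosome 19) totalled 94.2, 87.2 and 82.1 FPKM in the OVER43 libraries and 116.4, 112.9 and 106.9 FPKM in the EV libraries. The groups did not overlap, with a difference of -0.35 on the log2(FPKM + 1) scale. Such a gap was common, since 56.3% of 12205 tested genes did not overlap between groups at the gene level. The lower total lay mainly in 1 entry, SHANK1-207, a short retained-intron transcript of 780 bases near the 5′ end of the gene. All 8 SHANK1 transcripts were matched to GENCODE 29.

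SHANK1-207 stood at 40.7, 39.9 and 41.7 FPKM in the OVER43 libraries, against 79.5, 76.1 and 70.01 FPKM in the EV libraries. It was the leading entry in all 6 libraries, with 46.6 ± 3.84% of the gene in OVER43 and 67.0 ± 1.42% in EV. The intron that it keeps begins with the following bases. They lie at chr19:50711311-50711370 (GRCh38, minus strand; transcripts as in GENCODE 29), are shown because only this SHANK1 transcript holds them, and stand in capitals after the end of the exon before them.
SHANK1-207: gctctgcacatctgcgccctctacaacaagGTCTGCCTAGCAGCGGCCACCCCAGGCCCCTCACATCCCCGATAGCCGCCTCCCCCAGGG
Of the 731 stretches of 50 bases in SHANK1-207, 343 occur in no other SHANK1 transcript. The whole-gene entry also spans that intron, and it too was lower in OVER43, at 2.23 ± 0.0385 FPKM against 3.40 ± 0.0685 FPKM in EV. SHANK1-207 exceeded the whole-gene entry 18.3-fold in OVER43 and 22.1-fold in EV, per length. In fragments, which grow with length, SHANK1-207 held an estimated 1060 to 1114 in the OVER43 libraries and 1821 to 2332 in the EV libraries, and the whole-gene entry 5958 to 6255 and 8245 to 10207. Weighting each entry by its length, the share of SHANK1-207 differed by -5.28 points in place of -20.4.

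The 4 protein-coding SHANK1 transcripts together moved the other way. They summed to 32.0, 33.6 and 28.7 FPKM in OVER43, against 21.6, 23.3 and 25.7 FPKM in EV, and took 35.8 ± 2.41% of the gene in OVER43 and 21.1 ± 2.75% in EV. Neither the sums nor the shares overlapped between groups. SHANK1-202, with 22 exons, was the largest of them, at 19.8, 20.3 and 16.5 FPKM in OVER43, against 11.4, 11.9 and 14.8 FPKM in EV.

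SHANK1-203 showed the sharpest contrast. It stood at 8.61, 8.15 and 7.27 FPKM in OVER43, against 0.106, 0.0407 and 0.185 FPKM in EV, with 9.11 ± 0.243% and 0.0999 ± 0.0687% of the gene. Its 9 exons cover the 3′ part of the gene, and its coding sequence starts inside an exon that begins in what is an intron of the longer transcripts. The annotated protein thus lacks the N-terminal part of the full-length one. The bases below, in capitals and at chr19:50689280-50689339, are the last 60 of that start before it joins the sequence shared with the other transcripts, and they are what sets SHANK1-203 apart.
SHANK1-203: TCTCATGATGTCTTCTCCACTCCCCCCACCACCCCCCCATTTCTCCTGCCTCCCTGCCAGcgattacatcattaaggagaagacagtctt
Of its 4736 stretches of 50 bases, 123 (2.60%) occur in no other SHANK1 transcript, and single reads of that length from the rest of it also fit longer transcripts.

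SHANK1-201 went the opposite way, at 0.0482, 0.758 and 1.22 FPKM in OVER43, against 5.46, 6.42 and 5.40 FPKM in EV. It differs from SHANK1-202 inside the reading frame by an exon of 27 bases at chr19:50697096-50697122, whose length keeps the frame. The exon, in capitals, and the junction of SHANK1-202 that skips it are shown because they are the difference within the coding sequence. The pair also differs at both transcript ends, and 230 of the 6594 stretches of 50 bases in SHANK1-201 are absent from SHANK1-202.
SHANK1-201: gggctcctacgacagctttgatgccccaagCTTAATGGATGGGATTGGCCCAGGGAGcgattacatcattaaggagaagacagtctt
SHANK1-202: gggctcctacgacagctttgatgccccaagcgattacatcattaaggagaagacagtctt
The same 27-base exon occurs in SHANK1-204, whose share overlapped between groups while its level was lower without overlap, at 3.51, 4.40 and 3.64 FPKM in OVER43, against 4.66, 5.00 and 5.32 FPKM in EV. Together the transcripts with the exon summed to 3.56, 5.15 and 4.86 FPKM in OVER43, against 10.1, 11.4 and 10.7 FPKM in EV, without overlap. SHANK1-201 and SHANK1-202 taken as 1 stood at 19.6 ± 1.67 FPKM in OVER43, against 18.4 ± 1.68 FPKM in EV, which overlap. As a share, their sum was 21.1, 24.1 and 21.6% in OVER43 and 14.5, 16.2 and 18.9% in EV, without overlap. SHANK1-201 has no stretch of 50 bases of its own and SHANK1-202 has 46 of 6410.

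The remaining SHANK1 transcripts are short. SHANK1-208, a processed transcript of 422 bases at the 3′ end, stood at 15.7, 9.88 and 7.62 FPKM in OVER43, against 10.2, 10.1 and 5.46 FPKM in EV, overlapping in level but not in share. SHANK1-205, which retains another intron, read 1.13, 0.547 and 0.506 FPKM in OVER43 and was listed at 0 in all EV libraries. SHANK1-206, annotated to nonsense-mediated decay, averaged 1.61 ± 0.726 FPKM in OVER43, against 1.38 ± 1.25 FPKM in EV and was listed at 0 in EV library 1. Between libraries of the same group, the isoform profiles of SHANK1 differed by 2.42 to 10.1 points (the summed share of entries that were higher in one library than in the other, counting the excess only), and between libraries of different groups by 19.8 to 31.1 points.

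**Figure D3:**
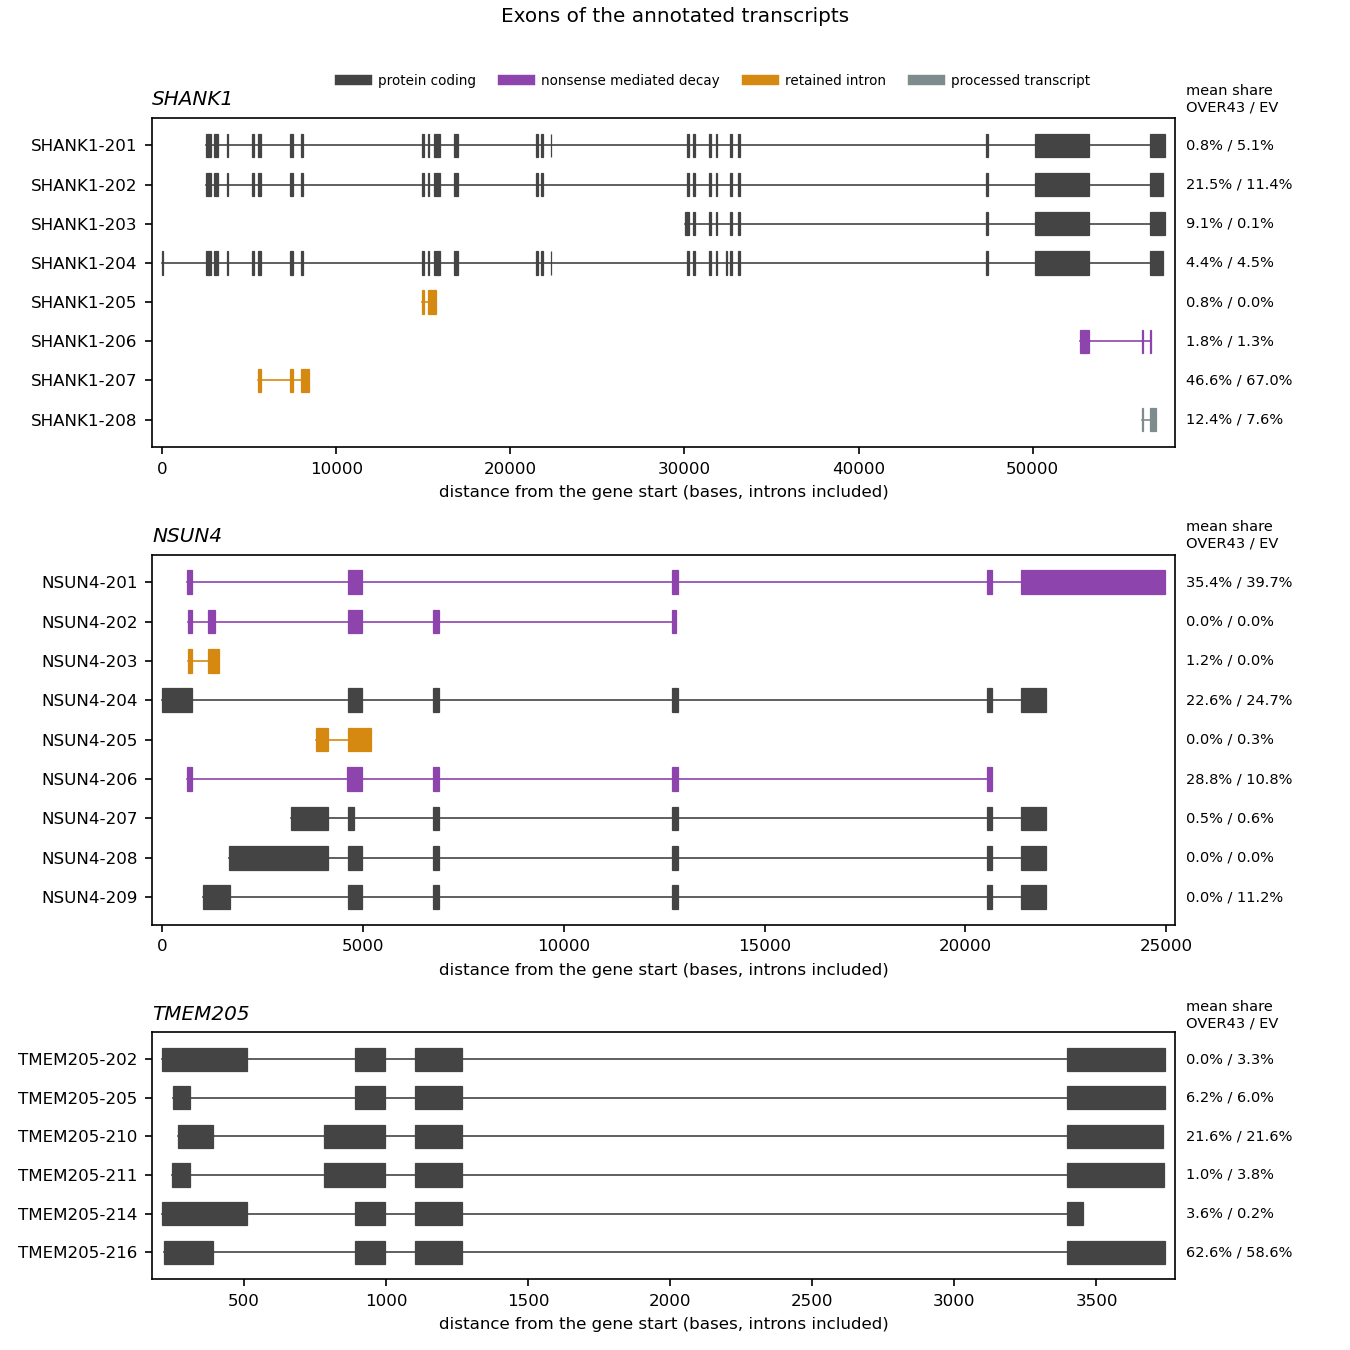
Exons (boxes) of GENCODE 29 transcripts of SHANK1, NSUN4 and TMEM205 against the distance from the gene start in bases, coloured by annotated type, with the mean share in OVER43 and EV at the right. All matched SHANK1 and NSUN4 transcripts and 6 of TMEM205 are drawn. SHANK1-207 covers 3 exons near the 5′ end, SHANK1-203 only the 3′ part, and TMEM205-214 ends inside the last exon of TMEM205-202.

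HGSNAT (ENSG00000165102, chromosome 8) totalled 15.3, 14.2 and 14.4 FPKM in OVER43, against 17.2, 16.7 and 16.1 FPKM in EV, a difference of -0.17 on the log2(FPKM + 1) scale. HGSNAT-201, the 18-exon protein-coding transcript, stood at 0.352, 4.43 and 0.0634 FPKM in OVER43, against 10.5, 10.2 and 8.61 FPKM in EV. The entry ENST00000458501, which is not among the GENCODE 29 transcripts and so has no type or sequence here, stood at 8.17, 3.20 and 7.52 FPKM in OVER43, against 0.00314, 0.00611 and 1.75 FPKM in EV. The pair exchanged the lead, HGSNAT-201 holding 11.3 ± 17.3% of the gene in OVER43 and 58.7 ± 4.504% in EV, and ENST00000458501 42.7 ± 17.4% and 3.65 ± 6.27%.

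The OVER43 libraries were far from alike. HGSNAT-201 took 2.30%, 31.3% and 0.441% of the gene in OVER43 libraries 0, 1 and 2, so that library 1 had an intermediate profile with HGSNAT-201 in front. Between libraries of the same group the isoform profiles of HGSNAT differed by up to 44.2 points, a maximum reached by OVER43 libraries 0 and 1. Between groups they differed by 30.1 to 70.3 points. All pairs of EV libraries lay below 30.1 points, so the ranges overlap through OVER43 alone. Without OVER43 library 1 the share of HGSNAT-201 differed by -57.3 points. The 2 entries together were lower in OVER43 without overlap, with 8.52, 7.63 and 7.58 FPKM in OVER43, against 10.5, 10.2 and 10.4 FPKM in EV, or 54.0 ± 1.41% and 62.4 ± 1.78% of the gene. The sum differed by -8.32 points, against -47.4 for HGSNAT-201 and 39.1 for ENST00000458501.

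HGSNAT-210, a 757-base protein-coding transcript of 7 exons, was the other entry with separate shares among those above 5%. It stood at 2.28, 2.32 and 2.95 FPKM in OVER43, against 0.852, 1.32 and 1.84 FPKM in EV, or 17.2 ± 2.94% and 8.11 ± 3.25% of the gene, on an estimated 59.0 to 73.2 fragments in OVER43 and 24.0 to 46.7 fragments in EV. HGSNAT-204 and HGSNAT-205, both retained-intron transcripts, overlapped between groups at 7.0% and 6.57% in OVER43 and 6.65% and 8.37% in EV. The shares of the other transcripts also overlapped. ENST00000297798, not among the GENCODE 29 transcripts, held 4.63 ± 5.28% in OVER43 and 3.64 ± 2.60% in EV. HGSNAT-202, HGSNAT-203, HGSNAT-206, HGSNAT-207 and HGSNAT-209 averaged 1.10 to 2.70% in OVER43 and 0.0439 to 2.99% in EV, with HGSNAT-207 at 6.23% in OVER43 library 0 and near 0 elsewhere. In level, HGSNAT-206 was lower without overlap, at 0.242 ± 0.130 FPKM in OVER43, against 0.405 ± 0.0644 FPKM in EV. The whole-gene entry held 1.39 ± 0.0435% in OVER43 and 1.72 ± 0.173% in EV, without overlap. HGSNAT-208 was listed at 0 throughout.

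TMEM205 (ENSG00000105518, chromosome 19) kept its total, at 54.7, 56.3 and 60.4 FPKM in OVER43, against 61.4, 53.5 and 58.5 FPKM in EV. These overlap. TMEM205-216 led in every library, with 34.7, 35.1 and 37.5 FPKM in OVER43, against 37.2, 28.9 and 35.7 FPKM in EV, and 62.6 ± 0.703% of the gene against 58.6 ± 4.02% in EV. Its levels overlapped between groups and its shares did not. The 4.03-point difference rested on EV library 1, without which it was 1.71 points. TMEM205-210 followed, at 21.6% of the gene in both groups.

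Shares of 5 TMEM205 entries did not overlap: TMEM205-216 and the minor protein-coding transcripts TMEM205-202, TMEM205-214, TMEM205-211 and TMEM205-204. Among the minor ones, a pair stood out by values near 0 in one group. TMEM205-202 was listed at 0, 0.00435 and 0 FPKM in OVER43, against 1.60, 1.99 and 2.001 FPKM in EV, while TMEM205-214 stood at 1.89, 1.89 and 2.44 FPKM in OVER43, against 0.341, 0 and 0 FPKM in EV. Their sum was 2.08 ± 0.316 FPKM in OVER43, against 1.98 ± 0.0311 FPKM in EV. Both begin at the same first exon, and every one of the 579 stretches of 50 bases in TMEM205-214 also lies in TMEM205-202. The longer transcript runs on past the end of the shorter one with the bases in capitals below (first 30, chr19:11343034-11343063, minus strand), which 14 TMEM205 transcripts hold, itself included, so these bases do not belong to it alone.
TMEM205-202: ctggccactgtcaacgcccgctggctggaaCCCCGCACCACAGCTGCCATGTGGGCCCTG
The pair held an estimated 36.6 to 46.0 fragments as TMEM205-214 in OVER43 and 58.2 to 65.5 as TMEM205-202 in EV, against 705.6 to 1115 for TMEM205-216. TMEM205-211 was lower without overlap, at 0.566, 0.403 and 0.769 FPKM in OVER43, against 1.53, 2.55 and 2.40 FPKM in EV. TMEM205-204 held 0.312 ± 0.308% in OVER43 and 0.971 ± 0.504% in EV. TMEM205-205 overlapped at 6.16% in OVER43 and 5.97% in EV. TMEM205-201, TMEM205-203, TMEM205-207, TMEM205-209, TMEM205-213 and the whole-gene entry overlapped too, with mean shares of 0.179 to 1.68% in OVER43 and 0.0820 to 2.51% in EV. Listed at 0 throughout were TMEM205-206, TMEM205-208, TMEM205-212 and TMEM205-215.

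NSUN4 (ENSG00000117481, chromosome 1) was higher in OVER43, at 20.0, 22.4 and 20.1 FPKM, than in EV, at 14.8, 14.6 and 15.8 FPKM, a difference of 0.44 on the log2(FPKM + 1) scale without overlap. The gain lay mainly in transcripts annotated to nonsense-mediated decay. These summed to 13.3 ± 0.506 FPKM in OVER43, against 7.61 ± 0.691 FPKM in EV, whereas the transcripts annotated as protein coding summed to 4.84 ± 0.972 FPKM in OVER43, against 5.49 ± 0.278 FPKM in EV. As shares, the decay type took 64.1 ± 4.80% of the gene in OVER43 and 50.5 ± 2.80% in EV, and the coding type 23.1 ± 3.17% and 36.5 ± 2.91%.

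NSUN4-206 carried most of this. It stood at 5.61, 5.64 and 6.66 FPKM in OVER43, against 1.30, 1.42 and 2.20 FPKM in EV, on an estimated 187.7 to 215.9 fragments in OVER43 and 42.5 to 72.8 in EV. Its second exon starts 19 bases early, at chr1:46344782-46344800 (plus strand). These bases, in capitals, are not a multiple of 3, so the reading frame changes after them, and they are shown beside the junction of the coding transcript NSUN4-204.
NSUN4-206: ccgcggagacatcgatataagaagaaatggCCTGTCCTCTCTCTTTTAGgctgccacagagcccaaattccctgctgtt
NSUN4-204: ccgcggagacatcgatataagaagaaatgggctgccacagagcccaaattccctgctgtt
In NSUN4-204 these bases are the end of the intron, and they close with AG, the usual last bases of an intron. Of the 873 stretches of 50 bases in NSUN4-206, 63 occur in no other matched NSUN4 transcript. Weighting each entry by its length, its share differed by 6.89 points in place of 17.96.

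NSUN4-209, a coding transcript with its own first exon, was near 0 in OVER43. It read 0.000728, 0.00584 and 0 FPKM in OVER43, against 1.83, 1.66 and 1.54 FPKM in EV, or 0.00991 ± 0.0141% and 11.2 ± 1.33% of the gene, on at most 0.5 estimated fragments in OVER43 and 131.1 to 177.1 in EV. Of its 2038 stretches of 50 bases, 451 (22.1%) occur in no other matched NSUN4 transcript, more than in NSUN4-206 (7.22%). NSUN4 entries outside GENCODE 29 were not compared. The leading entry of both groups was NSUN4-201, a decay-type transcript with a long last exon, at 7.23, 7.65 and 7.19 FPKM in OVER43, against 5.73, 6.01 and 6.17 FPKM in EV. The share of NSUN4-201 was lower without overlap, at 35.4 ± 1.07% in OVER43 and 39.7 ± 1.40% in EV. The main coding transcript NSUN4-204 was higher in level without overlap, at 4.40, 5.77 and 4.05 FPKM in OVER43, against 3.39, 3.90 and 3.88 FPKM in EV, and overlapped in share, with 22.6 ± 2.86% in OVER43 and 24.7 ± 1.94% in EV. ENST00000536062, not among the GENCODE 29 transcripts, held 9.76 ± 0.755% and 10.9 ± 3.82%. ENST00000471871, likewise not in GENCODE 29, read 0.209, 0.0153 and 0.0964 FPKM in OVER43 and was listed at 0 in EV. NSUN4-205 was listed at 0 in OVER43 and read 0.0340, 0.00178 and 0.119 FPKM in EV. NSUN4-203 held 1.24 ± 1.16% in OVER43, with 1 library at 0, and was listed at 0 in EV, and NSUN4-207 overlapped at 0.470% in OVER43 and 0.596% in EV. The whole-gene entry held 1.21 ± 0.0360% in OVER43 and 1.70 ± 0.0687% in EV, without overlap. NSUN4-202 and NSUN4-208 were listed at 0 throughout. The isoform profiles of NSUN4 differed by 5.15 to 10.0 points within groups and by 15.9 to 25.6 points between them.

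**Figure D4:**
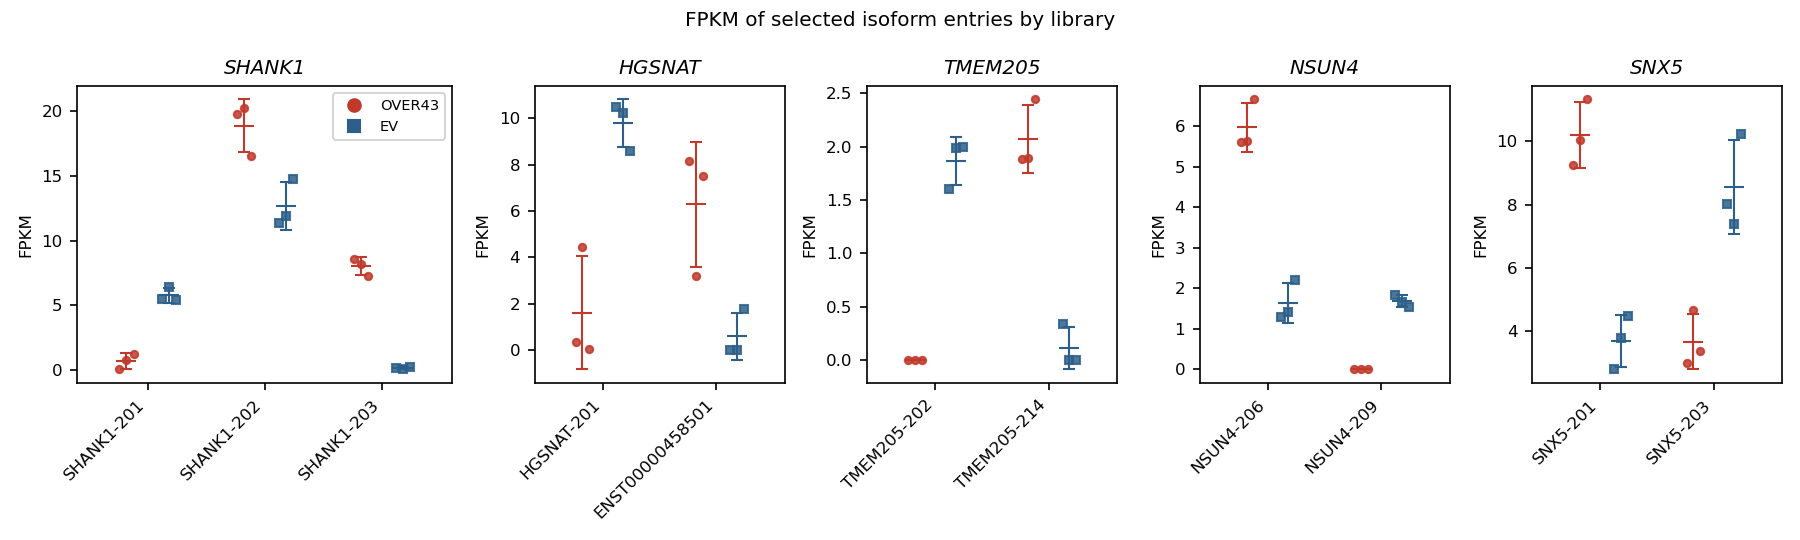
FPKM (y axis, a scale for each gene) of selected entries in the 3 OVER43 libraries (red circles) and 3 EV libraries (blue squares), with the mean ± SD. In each panel 1 entry is high where another is low, and in TMEM205 the 2 entries sum to 2.08 FPKM in OVER43, against 1.98 FPKM in EV.

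SNX5 (ENSG00000089006, chromosome 20) had a higher total than the other members in OVER43 but not in EV, where SHANK1 had a higher mean. It totalled 115.7, 123.3 and 124.0 FPKM in OVER43, against 104.8, 111.8 and 105.4 FPKM in EV. The difference of 0.17 on the log2(FPKM + 1) scale turned to -0.019 under quantile scaling of the libraries, so its direction depended on the scaling. Its 19 transcripts were spread widely. SNX5-209, a processed transcript, had the highest mean share with 17.2 ± 2.05% in OVER43 and 18.1 ± 3.11% in EV, and SNX5-202, coding, followed with 14.1 ± 1.31% and 12.5 ± 1.71%. Both overlap between groups. Shares of 3 transcripts did not overlap, SNX5-201, SNX5-203 and SNX5-204, and those of the other 16 and of the whole-gene entry did. SNX5-204, coding, held 6.42 ± 0.220% in OVER43 and 5.33 ± 0.925% in EV. The other 16 averaged 0.157 to 17.2% in OVER43 and 0.188 to 18.1% in EV, and among them SNX5-202 and SNX5-208, like the whole-gene entry, were higher in level without overlap.

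A pair of coding transcripts differed in opposite directions. SNX5-201 stood at 9.24, 10.0 and 11.3 FPKM in OVER43, against 2.81, 3.76 and 4.45 FPKM in EV, and SNX5-203 at 2.97, 4.65 and 3.37 FPKM in OVER43, against 8.02, 7.39 and 10.2 FPKM in EV. Their summed share was 11.4 ± 0.768% in OVER43 and 11.4 ± 2.18% in EV. SNX5-203 skips an exon of 105 bases at chr20:17956933-17957037 (minus strand), whose length keeps the frame. It is printed in capitals, with the skipping junction after it, because it is a difference of the pair within the coding sequence.
SNX5-201: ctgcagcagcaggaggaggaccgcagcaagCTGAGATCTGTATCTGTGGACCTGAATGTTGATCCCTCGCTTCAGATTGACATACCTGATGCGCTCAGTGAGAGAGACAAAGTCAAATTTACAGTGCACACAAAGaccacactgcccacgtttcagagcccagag
SNX5-203: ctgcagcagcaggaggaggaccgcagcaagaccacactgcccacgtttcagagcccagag
The junction into this exon is shared by SNX5-201, SNX5-202, SNX5-204 and SNX5-206, which summed to 36.1, 34.8 and 36.9 FPKM in OVER43, against 24.2, 25.9 and 25.4 FPKM in EV. SNX5-203 alone has the junction that skips it. SNX5-201 has no stretch of 50 bases of its own among 2221, and SNX5-203 has 45 of 729. Taken as 1, SNX5-201 and SNX5-202 held 22.6 ± 1.48% of the gene in OVER43 and 15.9 ± 1.16% in EV, without overlap. Isoform profiles of SNX5 differed by 8.46 to 13.2 points within groups and by 10.6 to 17.5 between them, which overlap.

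**Figure D5:**
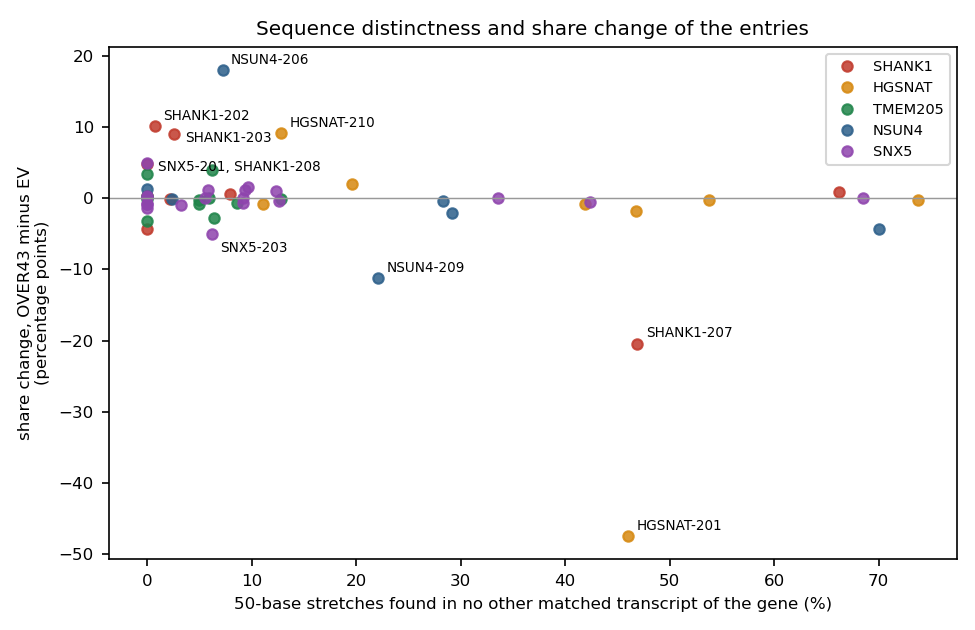
Change of share, OVER43 minus EV (percentage points, y axis), of each member transcript above 0 against the percentage of its 50-base stretches found in no other GENCODE 29-matched transcript of its gene (x axis). Transcripts at 0% include SNX5-201 and SHANK1-208, while SHANK1-207, NSUN4-209 and HGSNAT-201 lie further right. ENST00000458501 is not in the reference, so stretches that HGSNAT-201 shares with it were not counted.

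How much sequence of its own a transcript has bears on how its level is estimated. Among matched member transcripts above 0, compared only with other matched transcripts, 15 had no stretch of 50 bases of their own and 40 had at least 1. Shares did not overlap between groups in 5 of the 15 and in 15 of the 40, against the background of 14.3% over all entries above 0. The 5 comprise SHANK1-201, SHANK1-208, TMEM205-202, TMEM205-214 and SNX5-201. The genes were picked for such differences and the background is not split by own sequence, so nothing is read from these counts. The part that isoform estimation plays in these differences was not tested. Paired fragments can link distant exons, and the reads were not used here.

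The deposited loci of 3 members are shared with neighbouring genes. At the SHANK1 locus, SYT3, a synaptotagmin, stood at 2.40 ± 0.124 FPKM in OVER43, against 1.58 ± 0.0774 FPKM in EV (log2 difference 0.40, limma adjusted p = 0.0115), and C19orf81 at 1.14 ± 0.875 and 0.876 ± 1.52 FPKM. At the TMEM205 locus, RAB3D, a Rab GTPase of secretory vesicles, fell to 11.4 ± 0.433 FPKM in OVER43, against 14.6 ± 0.505 FPKM in EV (log2 difference -0.34, limma adjusted p = 0.00231). CCDC159 fell to 0.789 ± 0.376 FPKM, against 1.98 ± 0.364 FPKM in EV (log2 difference -0.75, limma adjusted p = 0.0107). At the SNX5 locus, MGME1, a mitochondrial exonuclease, rose to 39.8 ± 3.20 FPKM, against 29.7 ± 1.96 FPKM in EV (log2 difference 0.41, limma adjusted p = 0.00209). Other neighbours were not called. C19orf81 had a limma adjusted p of 0.606, OVOL2 at the SNX5 locus 0.988 and SNORD17 there 0.401, and ENSG00000267576 at the TMEM205 locus 0.851. TSPAN16 and ENSG00000267174 at the TMEM205 locus and PTMAP3 at the SNX5 locus were too low to test. The part that reads of overlapping genes play in the member values was not tested.

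Genes that work with each member were described from lists chosen by known role, without the members. Over all 12205 tested genes limma called 28.4% higher and 17.5% lower in OVER43 (45.9% in all), with a median log2 difference of 0.05. When the libraries were scaled to equal FPKM sums, that median moved to -0.08, and the calls to 1867 higher and 3579 lower, in place of 3462 and 2138. Quantile scaling gave 2549 higher and 2446 lower. All list counts below are from the fit over all genes.

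Of 17 other postsynaptic scaffold genes, 11 were tested, 3 rose and 2 fell, with a median log2 difference of 0.07, and 1 rose and 4 fell with equal FPKM sums (median -0.06). DLGAP4, which binds SHANK proteins and PSD-95, rose to 35.1 ± 0.304 FPKM in OVER43, against 25.01 ± 1.504 FPKM in EV (log2 difference 0.47, limma adjusted p = 0.000236). HOMER1, another SHANK partner, stood at 9.87 ± 1.05 FPKM in OVER43, against 7.98 ± 0.602 FPKM in EV (limma adjusted p = 0.0368, and 0.227 with equal sums). DLG3, a scaffold of the PSD-95 family, fell to 19.7 ± 0.497 FPKM, against 24.5 ± 1.90 FPKM in EV (limma adjusted p = 0.00589). SHANK3 stood at 4.19 ± 0.305 FPKM in OVER43, against 5.33 ± 0.641 FPKM in EV (limma adjusted p = 0.0466, and 0.139 under quantile scaling). SHANK2 was too low to test.

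Of 9 other genes of heparan sulfate breakdown, 7 were tested and 4 rose by limma, with a median of 0.23, while the other 3 had unadjusted p-values above 0.05. With equal sums 2 rose (median 0.10). SGSH, the sulfamidase that acts just before HGSNAT, rose to 12.3 ± 0.0825 FPKM in OVER43, against 8.54 ± 1.16 FPKM in EV (limma adjusted p = 0.00286). SUMF1, which activates sulfatases, stood at 12.5 ± 0.768 FPKM in OVER43, against 9.84 ± 0.988 FPKM in EV (limma adjusted p = 0.0141, and 0.1002 with equal sums). The other 2 called were NAGLU and GUSB. NAGLU lost the call under quantile scaling (limma adjusted p = 0.0573) and with equal sums (0.292), and GUSB kept it under both (0.0049 and 0.0138).

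Of 14 other genes of RNA cytosine methylation and mitochondrial ribosomal RNA modification, 12 were tested, 4 rose and 1 fell, with a median of 0.16, and 2 rose and 2 fell with equal sums (median 0.03). NSUN2, a transfer RNA methyltransferase, rose to 88.8 ± 2.22 FPKM in OVER43, against 69.6 ± 1.24 FPKM in EV (limma adjusted p = 0.000158). MRM3, which methylates the large mitochondrial ribosomal RNA, rose to 30.1 ± 2.59 FPKM, against 23.2 ± 1.12 FPKM in EV (limma adjusted p = 0.00352). TFB1M, which dimethylates the small mitochondrial ribosomal RNA, fell to 4.94 ± 0.371 FPKM, against 10.8 ± 0.812 FPKM in EV (log2 difference -0.99, limma adjusted p = 6.22e-05).

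Of 15 other SNX-BAR and retromer genes, 13 were tested, 5 rose and 2 fell, with a median of 0.10, and 2 rose and 4 fell with equal sums (median -0.04). SNX6, the closest relative of SNX5, rose to 54.9 ± 2.25 FPKM in OVER43, against 43.0 ± 0.881 FPKM in EV (limma adjusted p = 0.00046). VPS26A, a retromer subunit, rose to 42.4 ± 1.46 FPKM, against 33.3 ± 1.60 FPKM in EV (limma adjusted p = 0.000979). SNX30 fell to 5.14 ± 0.263 FPKM, against 7.39 ± 0.0871 FPKM in EV (limma adjusted p = 0.00135). SNX7 fell to 12.9 ± 0.545 FPKM, against 16.2 ± 1.14 FPKM in EV (limma adjusted p = 0.00692).

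All 18 genes of nonsense-mediated decay were tested, 7 rose and 1 fell, with a median of 0.15, and 3 rose and 4 fell with equal sums (median 0.04). EIF4A3, the helicase core of the exon junction complex, rose to 99.1 ± 2.75 FPKM in OVER43, against 68.9 ± 11.5 FPKM in EV (limma adjusted p = 0.00389). SMG6, the endonuclease of the pathway, stood at 10.8 ± 0.982 FPKM in OVER43, against 8.22 ± 0.296 FPKM in EV (limma adjusted p = 0.00731, and 0.0539 with equal sums). SMG5, which acts on UPF1 after it is phosphorylated, fell to 22.0 ± 1.93 FPKM, against 28.8 ± 0.404 FPKM in EV (limma adjusted p = 0.00226). Any tie between these levels and the decay-type share of NSUN4 was not tested.

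Among 5758 other named genes with a sum of at least 5 FPKM in every library and an entry whose shares did not overlap, the 5 with the largest share change of 1 entry were FBXL16, P2RX5, B3GNT2, PRR7 and RTN4RL2. An entry of FBXL16 held 81.9 ± 4.86% in OVER43 and 33.2 ± 18.9% in EV, and an entry of P2RX5, an ATP-gated channel, 52.0 ± 6.21% and 5.46 ± 4.62%. An entry of B3GNT2, a glycosyltransferase, held 97.2 ± 3.43% in OVER43 and 60.1 ± 21.3% in EV. The change in PRR7 was -36.7 points and in RTN4RL2, a Nogo receptor relative, 34.4 points. In all 5 genes EV library 2 lay nearest to OVER43, for example at 54.98% for the FBXL16 entry, against 23.6% and 21.0% in the other EV libraries. Without it the share changes were 59.5 points for FBXL16, 49.2 for P2RX5, 49.3 for B3GNT2, -47.5 for PRR7 and 39.8 for RTN4RL2.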

How the data were processed

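Poly(A) RNA of 6 RKO samples was made into Illumina TruSeq libraries, per the labels' protocols. Both deposited tables were made with Cuffdiff and hold FPKM per library and group means, per the submitters' processing notes and the file headers; no version, aligner or strand setting is stated there. The deposited log2 fold change runs EV over OVER43 and was not used, nor was the authors' test score. Deposited p-values and q-values serve only for the count of q under 0.05. The notes name hg38, but loci in the tables lie at hg19 positions, so printed coordinates and sequences come from GENCODE 29 (GRCh38), matched by transcript ID without version (62 of 66 member transcripts); versions can differ. Cuffdiff gave no estimate for 19 genes, which were left out. An exact 0 can be a failed estimate.

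Columns give the group but carry numbers 0 to 2 where labels number 1 to 3, and 0 per-library columns were left unused. Members, lists and tests were chosen with earlier results of these data known. Genes and entries that reached 1 FPKM in 3 or more libraries were fitted in R 4.3.3 by limma 3.58.1 (robust, with a trend; two-sided, Benjamini-Hochberg adjusted) on log2(FPKM + 1), which understates changes of low genes. Arcsine square roots of shares were fitted by limma too, robust but without a trend. That fit took entries with a mean share of at least 5% in a group. Their genes had at least 2 entries above 0 and a sum of at least 1 FPKM in every library. The procedures were tested on simulated data with independent noise for each gene or entry. The rates of recovery are not given here. Estimated fragments are FPKM times length, less the offset that made low values whole, times depth; 355 to 386 low values per library were used, 100% within 0.1 of a whole number. Named list genes are the 2 highest and 2 lowest called without overlap. Alternatives were other scalings, filters, pseudocounts and share denominators, a replicate block on the column numbers, the loss of any 1 library, and, added after seeing the data, shares weighted by length.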

Additional observations from a re-analysis of the deposited data

How the results depend on the processing

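The member share differences kept their direction under every alternative run. Leaving out 1 library each gave -22.5 to -18.7 points for SHANK1-207, -57.3 to -41.9 for HGSNAT-201, 1.71 to 5.31 for TMEM205-216, 15.8 to 19.8 for NSUN4-206 and 4.63 to 5.40 for SNX5-201. Weighting by length was chosen after seeing the data and gave -5.28 for SHANK1-207, 6.89 for NSUN4-206 and -46.4 for HGSNAT-201. Short entries weigh less by construction, and long ones such as the whole-gene entries weigh more. Entries without a known length were left out, among them ENST00000458501 of HGSNAT. Gene totals moved with the scaling. Under quantile scaling the log2 differences were -0.53 for SHANK1, -0.24 for HGSNAT, -0.15 for TMEM205 and -0.019 for SNX5, whose direction reversed. With equal FPKM sums they were -0.49, -0.31, -0.16 and 0.029 for these genes and 0.31 for NSUN4.

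Of isoform entries, limma called 4553, against 1896 with no filter on low values and 2545 to 3511 without 1 library each. Share calls numbered 0, against 25 on log2 ratios and 0 to 5 without 1 library (5 without EV library 2). Genes whose leading entry differed, with shares of both leading entries not overlapping, numbered 111. Without 1 library each there were 200 to 291 such genes, the most without EV library 2. Fewer libraries make overlap rarer, and the part that this plays was not tested. The causes of other moves were not tested.

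List counts (higher, lower) moved with equal FPKM sums and with the loss of 1 library. Equal sums gave 1 and 4 postsynaptic, 2 and 0 heparan sulfate, 2 and 2 methylation, 2 and 4 retromer, 3 and 4 decay genes. Quantile scaling gave 3 higher retromer and 2 lower decay genes, and a minimum of 5 FPKM 1 lower postsynaptic gene. Without 1 library each, postsynaptic genes counted 1 to 2 higher and 1 to 1 lower, heparan sulfate 2 to 4 higher, methylation 1 to 2 lower and retromer 3 to 5 higher.

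The column numbers did not pair libraries across groups (correlations of deviations 0.0166, -0.0909 and 0.0285). With the replicate block, limma called 1945 entries, 5316 genes and 0 shares, and 1 lower postsynaptic gene. Depth limits the minor entries, some of which rest on under 100 fragments, and interval estimates need reads that were not used here.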
